A study of Rattus norvegicus with 6 samples.

Results

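The miR-218 family was followed in small RNA counts from rat brain. Its members were taken by name as the 4 rows rno-miR-218a-5p, rno-miR-218a-1-3p, rno-miR-218a-2-3p and rno-miR-218b (rno for rat) of the 775 rows in the deposited count table. Of these, 3 held enough counts to be tested, against 454 tested rows in the whole table. The libraries fall into 2 groups of 3. All rats were male Sprague–Dawley rats, bought at an age of 7 weeks, and all had both common carotid arteries ligated (2-vessel occlusion, 2VO), a surgical model of vascular dementia. The 2VO group received the vehicle alone by gastric tube, 0.5% carboxymethylcellulose sodium at 5 mL/kg. The treated group (2VO with tilianin) received 40 mg/kg of tilianin, a plant flavonoid glycoside, in the same vehicle daily for 4 weeks. The comparison asks whether tilianin treatment of 2VO rats goes with another miR-218 level. The tissue is labelled as brain without a region, and the study's methods also say brain, whereas a figure legend of the study names the sequenced tissue as cortical. The sources do not say whether a library is 1 rat, so p-values measure the spread between libraries, which may be technical in part. Sham-operated rats are not analysed here.

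Slit proteins are secreted ligands that bind Robo receptors and steer growing axons, migrating neurons and vessel sprouts. In mammals the introns of Slit2 and Slit3 each carry a miR-218 hairpin, which can be processed from the host transcript. Robo receptor mRNAs are among the known targets of the guide strand, miR-218-5p. miR-218 is known as a neuronal miRNA that is particularly abundant in motor neurons. From a hairpin the guide strand is usually kept and the passenger strand of the other arm is mostly degraded.

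The sequences are shown because the reading of the 4 rows depends on them. They were matched by name to RefSeq (GRCr8); the build behind the authors' counts is not given in the sources used here. The bases 2 to 8, the seed that pairs with targets, are in capitals.

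miR-218a-5p: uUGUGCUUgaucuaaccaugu

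miR-218a-1-3p: aAACAUGGuuccgucaagcac

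miR-218a-2-3p: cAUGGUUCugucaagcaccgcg

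miR-218b: cAUGGUUAgaucaagcacaa

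In GRCr8, Mir218-1 lies inside Slit2 at chr14:66922348-66922457 on the minus strand. Mir218-2 lies inside Slit3 at chr10:20572523-20572632 on the plus strand, which is also the strand of Slit3. The hairpins are both 110 bases long. In the lines that follow, the capitals mark the guide strand first and the passenger strand second.

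Mir218-1: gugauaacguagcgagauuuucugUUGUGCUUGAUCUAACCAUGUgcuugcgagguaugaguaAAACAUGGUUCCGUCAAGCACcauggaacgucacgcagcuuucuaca

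Mir218-2: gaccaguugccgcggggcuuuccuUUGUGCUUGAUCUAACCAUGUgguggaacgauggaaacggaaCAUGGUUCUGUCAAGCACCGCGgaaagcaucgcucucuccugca

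The guide is the same 21 bases in both hairpins, so that its reads cannot be assigned to Slit2 or Slit3. The passenger strands differ. miR-218a-2-3p starts 3 bases further into the arm than miR-218a-1-3p, and along the 18 bases they share there is 1 substitution, C12U, counted from the 5′ end of miR-218a-1-3p. These passenger rows are therefore the rows that separate the loci.

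miR-218b is not a further copy of the guide. It is annotated on the opposite strand of the Slit2 locus, at chr14:66922414-66922433 on the plus strand, in a gene named Mir3565 that covers Mir218-1. Its reverse complement, uugugcuugaucuaaccaug, is bases 1 to 20 of the 21-base guide and is found in both hairpins. Its seed differs from that of the guide, and matches that of the passenger miR-218a-2-3p at 6 of 7 bases. Over their first 20 bases these strands differ by A8C, G9U, A10G, A19C and A20G, with the base of miR-218b first. Of the 689 listed miRNAs with a RefSeq sequence, 0 outside the family carry the seed of any of the 4 members.

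Total counts per library were 7175872 to 13198776. Over the tested miRNAs, the Spearman correlation with any other library was at most 0.957 for tilianin-treated replicate 2, while the remaining 5 libraries correlated with each other at 0.983 or more. This library thus stood apart, and results that rest on it are also given without it. Neuron-enriched miRNAs such as miR-124-3p and miR-9a-5p were abundant in every library, with at least 55804 and 23669 CPM.

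The guide row rno-miR-218a-5p was among the more abundant rows. It had 15100, 17747 and 9837 counts in 2VO replicates 1, 2 and 3, and 9058, 4952 and 11654 counts in tilianin-treated replicates 1, 2 and 3. By counts, without scaling to length, it ranked between 48 and 69 of the 775 rows in every library. Expressed as CPM, a count scaled to the TMM-adjusted size of its library, these were 1646, 1370 and 1273 CPM in the 2VO replicates and 984, 763 and 1423 CPM in the treated replicates. Treated replicates 1 and 2 lay below all 2VO libraries, whereas treated replicate 3 lay above 2VO replicates 2 and 3, so that the groups overlapped.

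The 2VO group had a mean of 1429 ± 193 CPM of rno-miR-218a-5p and the treated group one of 1056 ± 336 CPM (SD, n = 3 in both). The log2 fold change was -0.44 (standard error 0.272, approximate 95% interval -1.08 to 0.21), with an unadjusted p of 0.153 and an adjusted p of 0.746 from edgeR's quasi-likelihood test. The difference was not larger than the spread between libraries by this test, and the interval reaches from a fall of over 1 on the log2 scale to a small rise. On log2(CPM + 1), an exact two-sided permutation test gave p = 0.3, where 3 libraries against 3 cannot go below 0.1. Over all tested miRNAs the median log2 fold change was -0.03, and 15.2% had a lower one than miR-218a-5p.

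The estimate for miR-218a-5p depended on which treated libraries were used. Without treated replicate 2 the log2 fold change was -0.24, and edgeR's quasi-likelihood test gave an unadjusted p of 0.302. Without treated replicate 3 it was -0.72, with an unadjusted p of 0.0262 and an adjusted p of 0.300 in the same edgeR test. The study's screen asks for an unadjusted p below 0.05 together with a log2 fold change beyond ±1, and none of these fits met both.

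**Figure D1:**
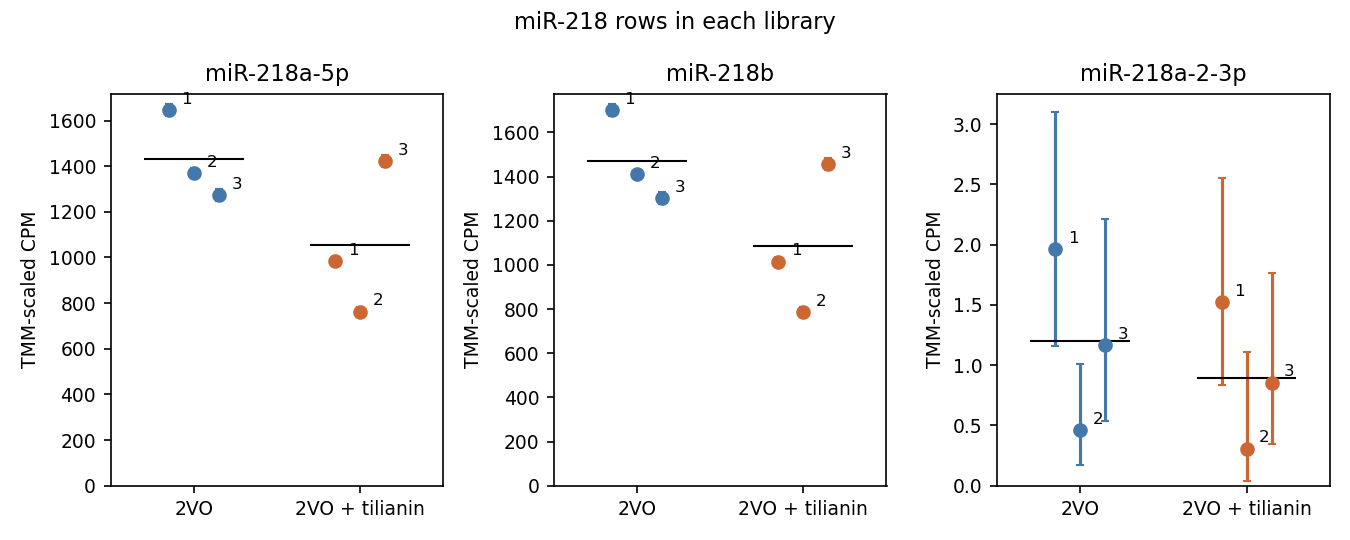
TMM-scaled CPM of miR-218a-5p, miR-218b and miR-218a-2-3p on linear axes from 0. Each point is 1 library, numbered by replicate, with its exact 95% Poisson interval, and each horizontal line is the mean of 3 libraries. The guide and miR-218b show the same order of libraries, with treated replicates 1 and 2 lowest, while for the passenger the interval of 2VO replicate 1 lies clear of those of 2VO replicate 2 and treated replicate 2.

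rno-miR-218b followed the guide almost count for count. It had 15612, 18270 and 10067 counts in 2VO replicates 1, 2 and 3, and 9342, 5105 and 11937 counts in tilianin-treated replicates 1, 2 and 3. In every library it thus lay slightly above miR-218a-5p. The ratio of miR-218b to miR-218a-5p was 1.034, 1.029 and 1.023 in the 2VO replicates and 1.031, 1.031 and 1.024 in the treated replicates.

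The mean ratio was 1.029 ± 0.00528 in the 2VO group and 1.029 ± 0.00396 in the treated group (SD, n = 3 each). Tested over the libraries as a log2 ratio, this gave p = 1 (exact permutation test, two-sided). Its own group comparison therefore repeats that of the guide, with a log2 fold change of -0.44 (standard error 0.272, edgeR unadjusted p = 0.150, adjusted p = 0.746), and of -0.24 without treated replicate 2. The strand setting of the authors' counting is not given in the sources used here, so that reads of miR-218a-5p and reads of its antisense partner cannot be told apart in these rows. The guide and miR-218b rows are treated here as 1 signal and not as independent evidence.

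Near-equal counts in rows annotated on opposite strands were uncommon in this table. With the strand setting not given, a row's counts need not come from its annotated strand. Rows whose annotated spans overlap by at least 14 bases on opposite strands formed 46 pairs, of which 40 held at least 100 counts in all. In 32 of these 40 pairs the lower row held under 1% of the pair's counts, and the median was 0.0373%. The lower row of the miR-218 pair, the guide itself, held 49.3% of 138681 counts. The lower row held over 40% in 4 pairs, and the others were miR-133c with miR-133a-3p (49.3%), miR-3587 with miR-29b-3p (46.4%) and miR-299b-3p with miR-299a-5p (44.1%). These were named after their values were seen. In 15 of the 40 pairs, miR-218 among them, the higher row was the one whose RefSeq gene has the higher gene identifier. Others of these were miR-3553 with 56521 counts beside 5 of miR-183-5p, and miR-3556a with 169254 beside 1857 of miR-29a-3p. In the other 25 pairs the row with the lower identifier was higher. A low share thus does not show that the counts lie in the row of the strand they came from.

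**Figure D2:**
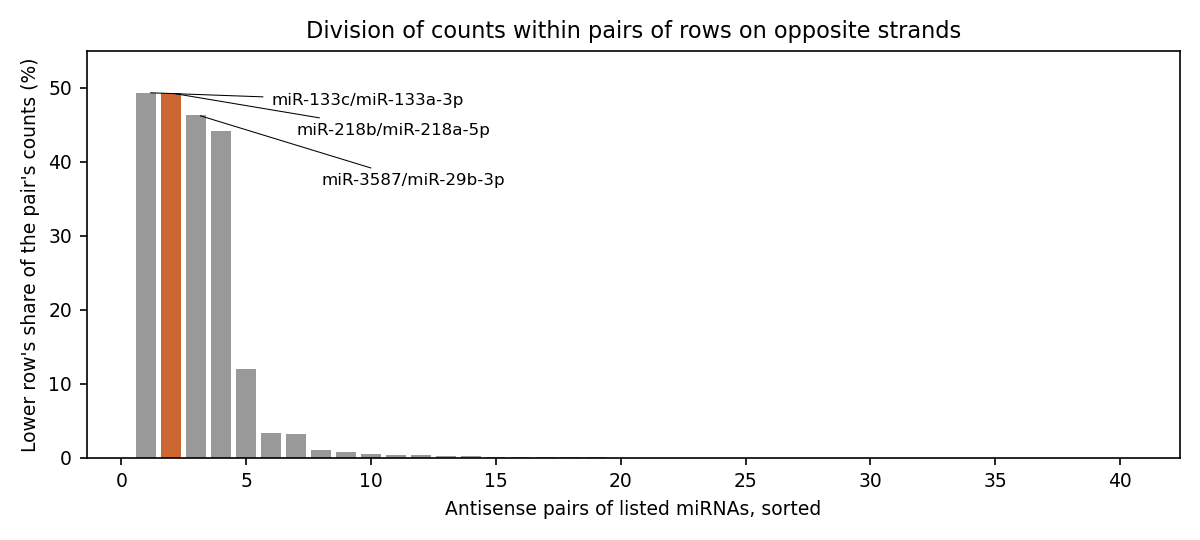
For each of the 40 pairs of rows on opposite strands with at least 100 counts, the bar gives the lower row's share of the pair's counts in percent, over all 6 libraries, sorted from high to low. The miR-218 pair (orange) is second with 49.3%, and most pairs are near 0.

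The passenger rows, which separate the Slit loci, were sparse. rno-miR-218a-1-3p of the Slit2 locus was listed at 0 counts in all 6 libraries. A count of 0 allows up to about 3 counts (an approximate one-sided 95% limit), which is 0.232 to 0.462 CPM depending on the library. The exact two-sided 95% Poisson limit is 3.69 counts, or 0.285 to 0.568 CPM. Both limits cover counting error only. rno-miR-218a-2-3p of the Slit3 locus had 18, 6 and 9 counts in 2VO replicates 1, 2 and 3, and 14, 2 and 7 counts in tilianin-treated replicates 1, 2 and 3. Each library therefore held some reads assigned to the Slit3 passenger.

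Over all libraries the passenger counts were 56 for the Slit3 locus and 0 for the Slit2 locus. With 0 of 56, the share of the Slit2 passenger could be up to 5.36% if 3 counts are taken as the limit. By the exact two-sided 95% interval it could be up to 6.38%. These counts describe the passenger rows and do not divide the guide reads between the loci. Of the 19 passenger twins in the table named in this way (copies 1 and 2 of the same arm), 8 had 1 row at 0 counts in every library. Among them were miR-30c-1-3p at 0 beside 1258 counts of miR-30c-2-3p, and miR-138-2-3p at 0 beside 1050 counts of miR-138-1-3p. The rest, miR-218 aside, held 357 (miR-17-3p), 22 (miR-664-5p), 18 (miR-219a-3p), 5 (miR-19b-5p) and 5 (miR-92a-5p) counts in the other twin. The 18 counts were of miR-219a-2-3p, whose antisense row miR-219b held 33793, so that its row total alone does not give its depth. A twin at 0 was thus seen in pairs with high and with low row totals, and in a sparse pair it says little.

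As CPM, rno-miR-218a-2-3p was at 1.96, 0.463 and 1.16 in 2VO replicates 1, 2 and 3 and at 1.52, 0.308 and 0.854 in treated replicates 1, 2 and 3. The group means were 1.196 ± 0.750 CPM and 0.894 ± 0.607 CPM (SD, n = 3 each). The highest and the second lowest value were both in the 2VO group, and the groups overlapped. The log2 fold change was -0.35 (standard error 0.713, approximate 95% interval -2.03 to 1.33), with an unadjusted p of 0.641 and an adjusted p of 0.896 from edgeR's quasi-likelihood test. Permuting the libraries gave an exact two-sided p of 0.7. A change of this passenger was not detectable at this depth, and its sign turned with single libraries. Leaving out 2VO replicate 1 gave a log2 fold change of 0.22 and leaving out treated replicate 2 one of 0.06, whereas leaving out 2VO replicate 2 or treated replicate 1 gave -0.74 and -0.94.

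Within a library the passenger can be set against the guide with no scaling of library sizes. miR-218a-2-3p made up 0.119%, 0.0338% and 0.0914% of its sum with miR-218a-5p in 2VO replicates 1, 2 and 3. The 95% Wilson intervals were 0.0753 to 0.188%, 0.0155 to 0.0737% and 0.0481 to 0.174%, so that 2VO replicates 1 and 2 differed by more than their counting error. In treated replicates 1, 2 and 3 the shares were 0.154%, 0.0404% and 0.0600%, with intervals of 0.0920 to 0.259%, 0.0111 to 0.147% and 0.0291 to 0.124%. The spread within each group was thus as wide as that between the groups. With miR-218b counted in with the guide the shares were lower, at 0.0586%, 0.0167% and 0.0452% in the 2VO replicates and 0.0760%, 0.0199% and 0.0297% in the treated replicates, in the same order of libraries.

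The log2 ratio of the passenger sum to the sum of miR-218a-5p and miR-218b was -11.39 ± 0.922 in the 2VO group and -11.30 ± 0.877 in the treated group (SD, n = 3 each). The difference was 0.09, with an exact permutation p of 1. With miR-218a-5p alone as the guide, a choice made after the data were seen, it was also 0.09. It turned to -0.44 without 2VO replicate 2 and to -0.41 without treated replicate 1, whereas leaving out 2VO replicate 1 or treated replicate 2 gave 0.43 and 0.42.

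The strong strand bias of the hairpin lay within the range of other brain miRNAs. Among 102 hairpins with both arms listed and at least 10000 counts on the major arm, the median share of the minor arm was 0.734%. The share for Mir218-2 was 0.0819%, and 24 hairpins had a lower one, Mir218-1 with its passenger at 0 among them. With the rows antisense to each arm counted in as well, miR-218b with the guide, the share for Mir218-2 was 0.0404% and 19 hairpins had a lower one, against a median of 0.734%. That way of counting was chosen with the data in view. The guide counts in all these shares come from both loci.

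In all, 0 of the 3 tested rows passed the screening criterion in edgeR's quasi-likelihood test, against 5.73% of all tested miRNAs in either direction and 1.1% downward. At an unadjusted p below 0.05 alone, 0 of the 3 passed, against 7.27% of all tested miRNAs, and 0 passed with limma-voom, with edgeR's exact test or with the Wald test of DESeq2. The CPM of treated and 2VO libraries overlapped for all 3 rows. Thus 0 of the 3 lay lower in every treated library, against 4.19% of the tested miRNAs. The guide and miR-218b are 1 signal, so the 3 rows are not independent.

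**Figure D3:**
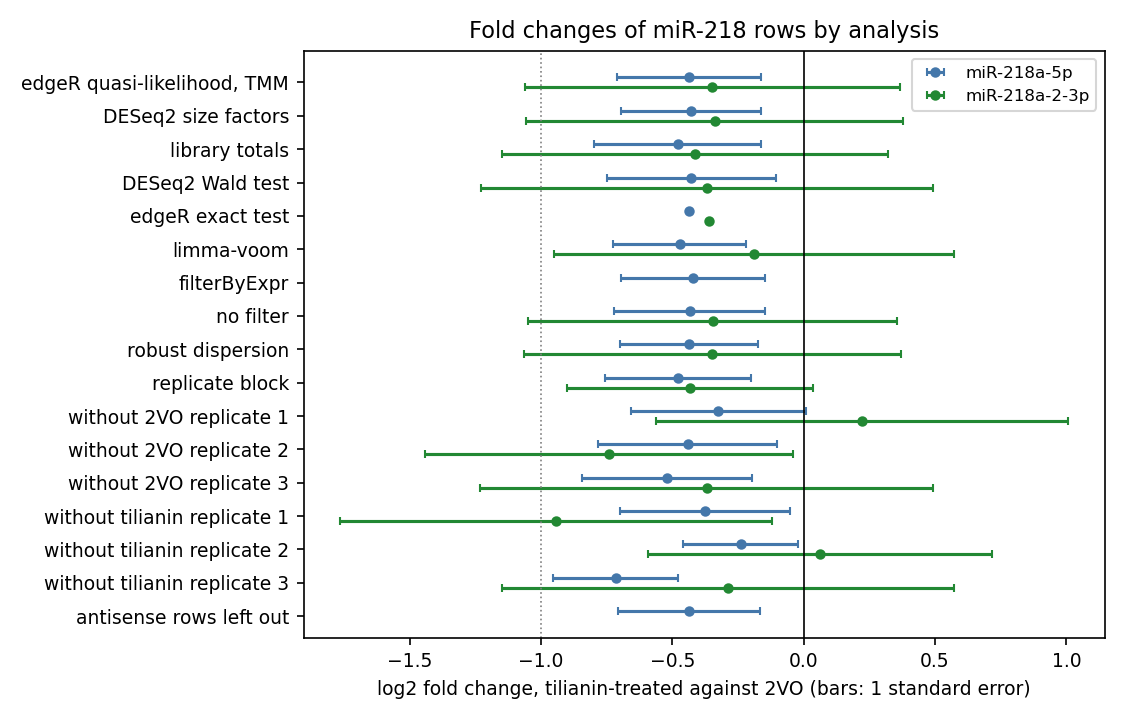
Log2 fold change (tilianin-treated against 2VO) of miR-218a-5p (blue) and miR-218a-2-3p (green) under each analysis, with bars of 1 standard error where the method gives one. The dotted line is the fold change criterion of -1. The guide stays between -0.72 and -0.24, and the passenger moves between -0.94 and 0.22.

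The guide was set beside a list of 12 neuron-enriched miRNAs. All 12 were tested, 0 passed the criterion, 11 had a log2 fold change below 0, and the median was -0.32, against -0.03 over all tested miRNAs. Without treated replicate 2, 8 of the 12 were below 0 and the median was -0.07, against 0.01 over all. miR-218a-5p at -0.44 lay within their range, from -0.89 for miR-7a-5p to 0.08 for miR-129-5p. miR-7a-5p had an unadjusted p of 0.0395 and an adjusted p of 0.637 from edgeR's quasi-likelihood test, and the other 11 had an unadjusted p above 0.05.

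The summed CPM of this list was 145994 to 175483 in the 2VO libraries and 157147, 93479 and 172469 in treated replicates 1, 2 and 3. Treated replicate 2 was thus lowest for this sum and for the guide, while treated replicate 1 lay inside the 2VO range of a sum made up mostly of miR-124-3p. Taken one by one, 7 of the 12 members were below every 2VO library in treated replicate 1, as the guide was, against 12 in treated replicate 2 and 1 in treated replicate 3. For the 17 miRNAs of the intron list given further below, which shares members with this list, these numbers were 6, 11 and 4. The share over all tested miRNAs was not computed, so the counts are not read as particular to neuron-enriched miRNAs. Per 1000 CPM of the list, miR-218a-5p was at 10.9, 9.38 and 7.25 CPM in 2VO replicates 1, 2 and 3 and at 6.26, 8.16 and 8.25 CPM in treated replicates 1, 2 and 3. On this scale, which was chosen after the data were seen, treated replicate 2 lay inside the 2VO range and treated replicate 1 remained below it.

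**Figure D4:**
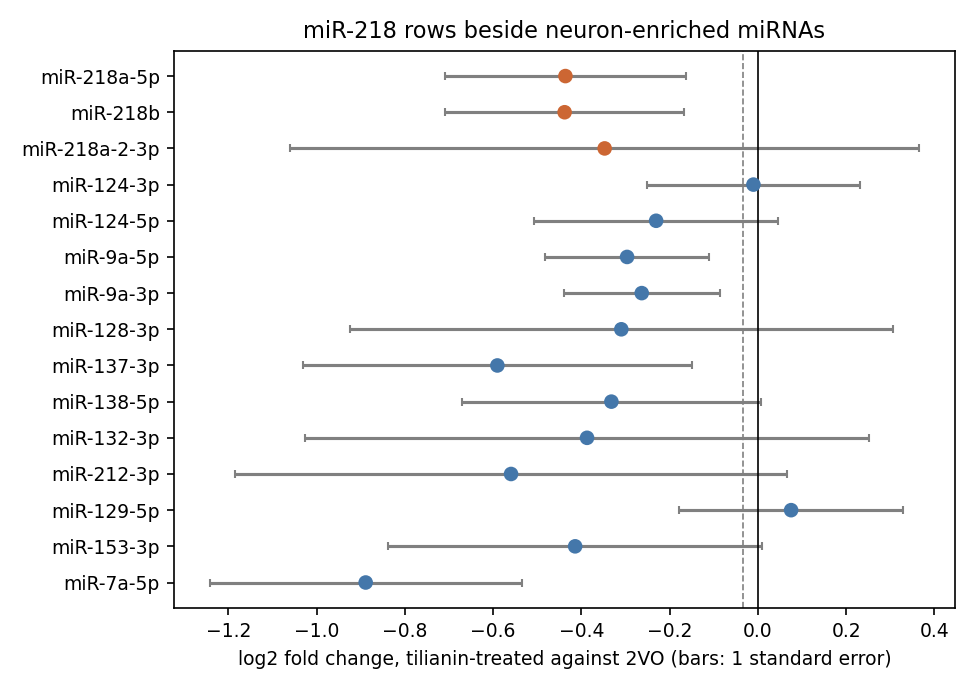
Log2 fold change (tilianin-treated against 2VO, edgeR) with bars of 1 standard error for the tested miR-218 rows (orange) and 12 neuron-enriched miRNAs (blue). The dashed line is the median of all tested miRNAs, -0.03. The miR-218 rows lie inside the range of the neuron-enriched miRNAs.

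Pearson correlations on log2(CPM + 1) over the 6 libraries were used to name the rows most like the guide. They were miR-218b (r = 0.9999), miR-137-3p (0.953), miR-9a-5p (0.953), miR-9b-3p (0.951) and miR-103-3p (0.942). Without treated replicate 2 the correlations of the last 4 were 0.853 to 0.917. All rows share the same libraries, and the values are a description. miR-9b-3p is annotated antisense to miR-9a-5p, as miR-218b is to the guide. miR-137-3p, a neuronal miRNA, had 408, 407 and 359 CPM in the 2VO replicates, against 241, 112 and 426 CPM in treated replicates 1, 2 and 3. miR-9a-5p, a miRNA of neural progenitors and neurons, had 34377 to 34905 CPM in the 2VO libraries, against 25970, 23669 and 34982 CPM after tilianin. As for miR-218a-5p, treated replicates 1 and 2 were below every 2VO library for both, and also for miR-9b-3p and miR-103-3p. miR-103-3p had 3306 to 3499 CPM in the 2VO libraries, against 2912, 2638 and 3757 CPM in treated replicates 1, 2 and 3. Picking rows by their correlation with the guide favours this shared order of libraries. For the passenger miR-218a-2-3p the closest rows were miR-384-5p (0.869), miR-370-3p (0.859), miR-758-5p (0.857), miR-493-5p (0.838) and miR-323-5p (0.836), on at most 18 counts of the passenger per library.

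A list of miRNAs named as lying in introns of other protein-coding genes, such as miR-128-3p and miR-153-3p, was also set beside the guide. Their location was not checked here. Both named miRNAs are also in the neuron-enriched list, so the lists are not separate. Of 17 tested, 0 passed the criterion, 12 were below 0 and 5 above, with a median log2 fold change of -0.08. Without treated replicate 2, 8 were below 0 and the median was 0.02.

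The sums of lists of miRNAs of other cell types and regions differed between libraries, most for the Hox-cluster list. Fewer cells of a type and less RNA per cell cannot be told apart in such tissue libraries. The Hox-cluster list, whose miR-10a and miR-10b mark hindbrain and spinal cord, where miR-218-rich motor neurons lie, summed to 90.1 to 151 CPM in the 2VO libraries. It summed to 322, 21745 and 490 CPM in treated replicates 1, 2 and 3, and 2 of its 8 listed members were at 0 in every library. Of its 5 tested members 4 passed the criterion upward, against 4.63% of all tested miRNAs. Without treated replicate 2 it was 2 of 4, in a fit that called 9 miRNAs upward in all. The 4 that passed with all libraries were both arms of miR-10a and of miR-10b. The study itself lists miR-10a-5p and miR-10b-5p as raised by tilianin, and this list was chosen with earlier results known. These counts are thus a description. Treated replicate 2, highest for this list, was the lowest library for miR-218a-5p.

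The choroid plexus list summed to 120 to 152 CPM in the 2VO libraries and to 349, 1078 and 123 CPM in treated replicates 1, 2 and 3. Nearly all of this sum was miR-204-5p, with 1064 CPM in treated replicate 2. Of its 4 tested members 3 passed the criterion upward, against 4.63% of all tested miRNAs, and 1 of 4 without treated replicate 2. The remaining member, miR-449a-5p, had a log2 fold change of -0.59. The erythroid list summed to 154.5 to 198 CPM and to 406, 881 and 338.1 CPM. Nearly all of this sum was miR-486, with 876 CPM in treated replicate 2. Of its 2 tested members 1 passed upward, miR-486, against 4.63% of all tested miRNAs. It was also 1 of 2 without treated replicate 2. For these lists and the Hox-cluster list, treated replicate 2 was highest. Treated replicate 3 lay inside the 2VO range for the choroid plexus list, but above every 2VO library for the erythroid and Hox-cluster lists. The part of these lists in the miR-218 values was not tested.

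The oligodendrocyte list summed to 18.2 to 35.3 CPM in the 2VO libraries and to 17.5 to 50.5 CPM in the treated libraries, with 0 of 2 tested members past the criterion. Its defining miR-338-3p and miR-219a-2-3p are themselves rows with a higher antisense partner, miR-3065-5p and miR-219b. The endothelial and mural list summed to 5374 to 8556 CPM and to 6513 to 7206 CPM, with 0 of 5. Nearly all of this sum was miR-126a, while miR-143-3p and both arms of miR-145 were each at 2.93 CPM or less in every library. The microglial and leukocyte list summed to 776 to 1163 CPM and to 998 to 1403 CPM. Of its tested members 1 of 6 passed upward, against 4.63% of all tested miRNAs, and 0 of 6 without treated replicate 2. The sums of the oligodendrocyte, endothelial and microglial lists all overlapped between the groups, as miR-218a-5p did.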

How the data were processed

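Per the labels, total RNA was extracted with Trizol and libraries were made with a TruSeq Small RNA kit. The authors deposited raw counts per mature miRNA for 6 libraries. The submitters' processing notes name FastQC 0.11.2, Trimmomatic 0.36, cutadapt 1.14 and DESeq2 1.12.4. The aligner, miRNA reference, build and strand setting are not given in the sources used here. The age of the rats is from the study's methods. Columns were mapped to samples by the library codes in the labels.

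A row was tested if its counts over all libraries summed to 10 or more. Library sizes were scaled with TMM and the quasi-likelihood test of edgeR 4.0.16 was run in R 4.3.3 with group as the single term, with p-values adjusted over all tested rows with the Benjamini-Hochberg method. Standard errors are the absolute fold change over the root of the F statistic and are approximate. Intervals use the fit's degrees of freedom. Ratios within a library used a pseudocount of 0.5 counts and summed levels one of 1 CPM, with two-sided exact permutation tests over libraries. Code was tested on simulated data. No ratio of miR-218a-1-3p to miR-218a-2-3p was computed, since the former is at 0. Without molecular identifiers in the sources, intervals and limits cover counting error only.

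Named miRNAs were the members, rows with a member's seed, the 5 rows most correlated with the guide and with the tested passenger, twin passenger rows found by name, and members of the lists. The members and lists were chosen with earlier results of these data known. Same-numbered replicates did not deviate together (correlations of -0.121, 0.00917 and 0.297), so the numbers were not treated as pairs. Alternatives were other scalings, filters and tests, robust dispersion, a replicate block, and leaving out single libraries (limma 3.58.1 and DESeq2 1.42.0 for their own tests).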

Additional observations from a re-analysis of the deposited data

How the results depend on the processing

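miR-218a-5p and miR-218b kept a negative sign and stayed outside the criterion in every alternative run (16 and 15), with log2 fold changes of -0.72 to -0.24 and -0.71 to -0.24. With the replicate block they were -0.48 and -0.48, and this changed no call of a member. Leaving out each library in turn moved miR-218a-2-3p from -0.94 to 0.22, the log2 ratio of passengers to guides from -0.44 to 0.43 and that of miR-218b to miR-218a-5p from -0.0040 to 0.0034. The filterByExpr filter removed miR-218a-2-3p, which thus has no value there, and miR-218a-1-3p had none in any fit. Leaving out annotated antisense rows, added after the data were seen, gave -0.44 for miR-218a-5p. Counting antisense rows with each arm, also added later, lowered the passenger share of Mir218-2 from 0.0819% to 0.0404%.

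Over all miRNAs, those called upward (21) numbered 6 by limma-voom, 9 in the replicate block fit and 7 to 29 as single libraries were left out. Those called downward (5) numbered 8 by library totals, 3 by DESeq2's Wald test, 3 by limma-voom, 2 after filterByExpr and 2 to 5 as single libraries were left out. The cause was not tested. The depth of 2 to 18 counts per library limits what the passenger row can show.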
